A study of Mus musculus with 12 samples.

Results

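The CSF1 and GM-CSF axes comprise the growth factors that keep macrophages, monocytes and other myeloid cells alive and the receptors that read them. They were described here through 7 genes chosen by name: the ligands Csf1, Il34 and Csf2, and the receptor genes Csf1r, Csf2ra, Csf2rb and Csf2rb2. All 7 were among the 24956 gene symbols of the count table. The samples were 12 tumours of PDA.69, a pancreatic ductal adenocarcinoma line from the KPC mouse (a genetic model of pancreatic cancer), which the labels describe as poor in T cells. Of these, 6 grew in wild-type (WT) mice and 6 in Alb-Cre+/+ STAT3f/f mice, here called Alb-Cre tumours. Those hosts carry floxed Stat3 and express Cre recombinase from the albumin promoter, which deletes Stat3 in hepatocytes. The deletion is thus in the liver of the host, outside the tumour cells, and all tumours share 1 cell line. The sources used here do not give host age, host sex or the site of the graft. RNA came from fixed, paraffin-embedded sections and was read at the 3' ends of transcripts.

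CSF1 (also called M-CSF) and interleukin 34 are unrelated in sequence, but both bind the receptor tyrosine kinase CSF1R, on which most tissue macrophages depend for survival and proliferation. GM-CSF, the product of Csf2, binds a receptor made of a specific alpha chain (Csf2ra) and a signalling beta chain (Csf2rb), which it shares with interleukins 3 and 5 and which signals through JAK2 and STAT5. The mouse has a further beta chain gene, Csf2rb2, whose product serves the interleukin 3 receptor. In pancreatic tumours, CSF1 and GM-CSF are known for drawing in and shaping macrophages and other myeloid cells.

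Both beta chain genes are close neighbours on chromosome 15 (GRCm38), with Csf2rb at 78325752 to 78353847 on the plus strand and Csf2rb2 at 78282507 to 78305721 on the minus strand. Their coding sequences were 95.6% identical over 2626 aligned bases. The following coding stretches, from GENCODE M21 transcripts, run from coding base 2543 to 2632 in both genes, counted from the start codon, and are shown because reads must tell these genes apart. Capitals mark the 6 of 90 bases that differ.
Csf2rb: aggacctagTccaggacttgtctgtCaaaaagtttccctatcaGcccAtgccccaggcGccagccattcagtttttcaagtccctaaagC
Csf2rb2: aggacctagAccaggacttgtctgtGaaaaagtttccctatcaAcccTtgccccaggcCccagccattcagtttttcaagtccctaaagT
Of the 50-base stretches of the Csf2rb coding sequence, 26.3% also occurred in Csf2rb2. In the last 600 bases of the GENCODE M21 transcript, where reads of that annotated 3' end fall, 0 of 551 stretches of 50 bases did, in either direction. Reads at the 3' ends of GENCODE M21 thus differ between the genes, while reads from inside the coding sequence can be shared. For Csf2rb the 3' end lies 2846 bases apart in GENCODE M21 and RefSeq. The annotation used for counting is not named, so reads counted for Csf2rb may come from outside the 600 bases compared. The sources used here do not say how shared reads were counted.

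Promoters of the ligand gene Csf1 and of the receptor genes Csf2ra and Csf2rb2 are shown because these 3 genes had positive fold changes in the comparison of hosts. They are RefSeq sequences (GRCm38.p6) of 300 bases that end 50 bases past the transcription start, on the gene's own strand. Csf1r, Il34 and Csf2rb had no entry. Capitals mark matches, on either strand, to 4 motifs: GAGGAA (the core bound by PU.1, the myeloid transcription factor), TGACTCA (AP-1), GGGA, any base and TTTCC (NF-kB) and TTCNNNGAA (STAT).
Csf1, chr3:107760420-107760719, minus strand: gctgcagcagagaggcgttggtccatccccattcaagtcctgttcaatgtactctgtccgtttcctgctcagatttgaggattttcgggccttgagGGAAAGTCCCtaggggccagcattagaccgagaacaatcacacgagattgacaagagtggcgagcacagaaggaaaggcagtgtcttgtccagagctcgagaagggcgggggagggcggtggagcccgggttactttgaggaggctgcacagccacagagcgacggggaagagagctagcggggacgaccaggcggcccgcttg
Csf2ra, chr19:61228369-61228668, minus strand: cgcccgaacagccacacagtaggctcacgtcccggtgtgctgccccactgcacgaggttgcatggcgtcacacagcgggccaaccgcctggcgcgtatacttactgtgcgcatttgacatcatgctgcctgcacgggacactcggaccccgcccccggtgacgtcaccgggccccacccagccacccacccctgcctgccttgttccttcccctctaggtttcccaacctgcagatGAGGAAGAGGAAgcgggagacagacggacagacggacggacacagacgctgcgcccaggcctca
Csf2rb2, chr15:78305672-78305971, minus strand: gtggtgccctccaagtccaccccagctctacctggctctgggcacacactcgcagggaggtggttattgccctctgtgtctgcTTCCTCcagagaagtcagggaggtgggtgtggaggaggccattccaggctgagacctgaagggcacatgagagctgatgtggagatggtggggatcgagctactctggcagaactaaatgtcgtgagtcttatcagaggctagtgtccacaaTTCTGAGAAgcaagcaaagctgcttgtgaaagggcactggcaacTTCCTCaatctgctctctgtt
The Csf1 window held 1 NF-kB match, at base 97, and no PU.1 core. The Csf2ra window held 2 PU.1 cores next to each other, at bases 237 and 243. The Csf2rb2 window held PU.1 cores at bases 84 and 280 and 1 STAT match at base 236. Of 32851 promoters of this length, 28.3% held a PU.1 core, 5.2% an AP-1 match, 0.411% the NF-kB match and 8.3% the STAT match. The fourth promoter found, that of Csf2, held 0 matches to any of these motifs. These are matches of letters only, and no binding was measured.

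The libraries held 5691707 to 8085609 counts, and 15221 to 16688 genes had a count in a tumour. Counts from normal acinar pancreas differed between tumours. The 19 listed acinar genes took 0.544 to 19.6% of counts in WT and 0.777 to 37.5% in Alb-Cre tumours, with over 15% in WT 5 and in Alb-Cre 1, 2, 3 and 4. Epithelial markers of the tumour line, such as Krt19 and Epcam, were present in all 12, at a summed 3550 to 4242 CPM in WT and 2569 to 3409 CPM in Alb-Cre tumours. CPM are read counts scaled to a common library size, with TMM factors. Whether each tumour grew in its own mouse is not stated in the labels, so the p-values reflect only how these samples varied.

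Of the 7 genes, 6 passed the low count filter and Csf2 did not. In tumours of Alb-Cre hosts, 5 of the 6 had a positive fold change and Il34 a negative one, with a median log2 fold change of 0.59 beside 0.00 over the 12856 genes tested. At an adjusted p under 0.05 in edgeR's quasi-likelihood test (Benjamini-Hochberg), 0 of 6 were higher and 0 of 6 lower, where 2.23% of all genes tested were higher and 0.747% lower. Of the 6, the genes Csf1, Csf1r, Csf2ra and Csf2rb2 had an unadjusted p under 0.05, as did 19.4% of all genes tested. DESeq2, with its own size factors, called Csf1, Csf1r and Csf2ra higher, against 4.81% of all genes. For each of the 6, at least 1 Alb-Cre tumour lay within the range of the WT tumours, whereas 2.01% of all genes had genotypes that did not overlap. In bulk tumours, more cells of a type and more RNA per cell cannot be told apart.

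**Figure D1:**
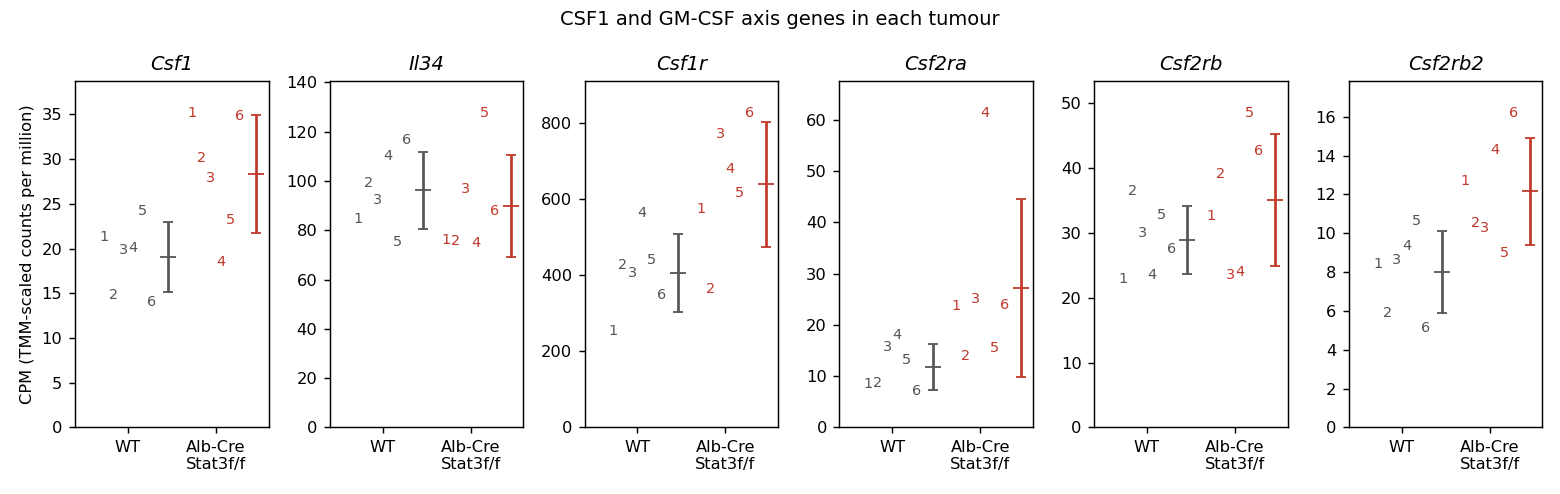
CPM of the 6 tested genes in each tumour. Digits are the tumour numbers, and the bars beside them give the mean and SD of 6 tumours. Csf1r lies above every WT tumour in 5 of 6 Alb-Cre tumours, and Csf2ra is highest in Alb-Cre 4 at 61.4 CPM.

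A 3' library gives about 1 read per captured transcript whatever its length, so levels of different genes were compared as CPM without division by length. This assumes that the reads of each 3' end were counted. In GENCODE M21 and RefSeq the 3' ends lie 6766 bases apart for Csf2ra, 2846 for Csf2rb and 1010 for Csf1r. The annotation used for counting is not named, so the order below and count ratios between these genes may depend on it. In WT tumours Csf1r was the most abundant at 254 to 563 CPM, followed by Il34 at 75.4 to 117 CPM. Neither range overlapped with that of any other of these genes. Csf2rb (23.0 to 36.5 CPM) and Csf1 (14.0 to 24.2 CPM) overlapped slightly. Csf1 in turn overlapped with Csf2ra (7.07 to 18.1 CPM), and Csf2ra with Csf2rb2 (5.13 to 10.6 CPM). The order of the 6 means was the same in Alb-Cre tumours. There Csf1r had 365 to 828 CPM, Il34 74.96 to 128 CPM and Csf2rb 23.6 to 48.6 CPM, while Csf1 and Csf2ra overlapped with Csf2rb, and Csf2rb2 with Csf2ra. Csf2 lay at or below 0.507 CPM in all 12 tumours.

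Csf1, the ligand that most macrophages require, lies on chromosome 3 at 107741048 to 107760469 (minus strand, GRCm38; its identifier in GENCODE M21 is ENSMUSG00000014599.10). It ranged from 14.0 to 24.2 CPM in WT tumours, with a median of 19.98, and from 18.5 to 35.2 CPM in Alb-Cre tumours, with a median of 29.0. The 4 Alb-Cre tumours 1, 2, 3 and 6 lay above every WT tumour, and tumours 4 and 5 lay within the WT range. The mean was 19.0 ± 3.92 CPM in WT and 28.3 ± 6.59 CPM in Alb-Cre tumours (SD, n = 6). The log2 fold change was 0.57 ± 0.18 (SE), a 1.49-fold higher level, and edgeR's adjusted p was 0.0793. Without Alb-Cre 4 it was 0.67 ± 0.17 with an edgeR adjusted p of 0.0271. Of the 12 fits that each left out 1 tumour, only this 1 passed (adjusted p 0.0271 to 0.186). With the acinar score as a covariate the log2 fold change was 0.43 ± 0.18 (edgeR adjusted p = 0.330). Without the 5 acinar-rich tumours it was 0.69 ± 0.22 (edgeR adjusted p = 0.207).

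Il34, the other ligand of CSF1R, is known for supporting Langerhans cells of the skin and microglia of the brain. It lies on chromosome 8 at 110741829 to 110805924 (minus strand, GRCm38). Il34 ranged from 75.4 to 117 CPM in WT tumours, with a median of 95.6, and from 74.96 to 128 CPM in Alb-Cre tumours, with a median of 81.9. The genotypes overlapped almost fully, with the highest value in Alb-Cre 5 and the lowest in Alb-Cre 4. The log2 fold change was -0.10 ± 0.14 (SE), and edgeR's adjusted p was 0.746. The sign of this small difference changed with the acinar score as a covariate (0.12 ± 0.11) and without the 5 acinar-rich tumours (0.10 ± 0.16).

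Il34 was lower in WT tumours with more acinar counts. In WT tumours the order of Il34 was the exact reverse of that of the acinar percentage, from WT 6 (0.544% acinar counts, 117 CPM) to WT 5 (19.6%, 75.4 CPM). On log2 scales Pearson's r within WT was -0.97 (n = 6), also without the 2 tumours farthest from the median. Within Alb-Cre tumours r was -0.84 and rho -0.37 (n = 6), and this rested on the farthest tumours, since r was 0.66 without 2 of them. These values within a genotype are a description with no test, because Il34 was looked at more closely for its relation over all tumours. Over all 12 tumours, with each genotype's mean taken away, Il34 had r = -0.87 with the acinar score (permutation p = 0.002, adjusted p = 0.0235 over 12 relations of 6 genes with 2 scores). Spearman's rho was -0.76 (permutation p = 0.0076, adjusted p = 0.0914), and r was -0.62 without WT 6 and Alb-Cre 5, the tumours poorest in acinar counts. Of the 5 acinar-rich tumours 4 were Alb-Cre tumours, so the ratios to Il34 below are also given without these 5.

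**Figure D2:**
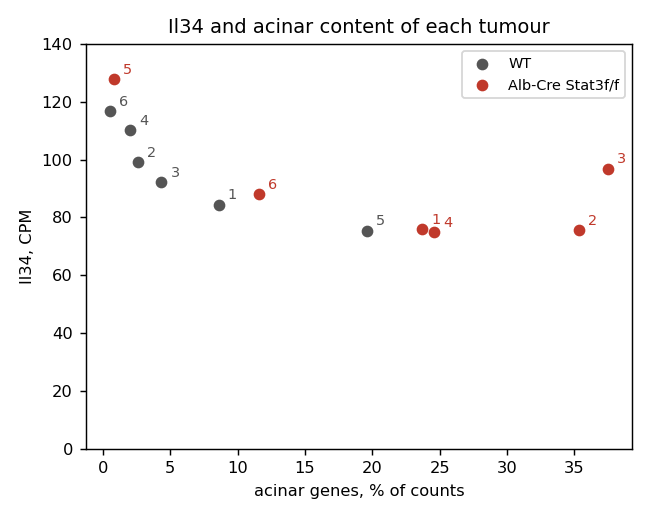
Il34 in CPM against the percentage of counts from 19 acinar genes, 1 point per tumour with its number. WT tumours descend from 117 CPM at 0.544% to 75.4 CPM at 19.6%, and Alb-Cre 3, at 37.5%, lies at 96.9 CPM.

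Csf2, encoding GM-CSF, lies on chromosome 11 at 54247271 to 54249667 (minus strand, GRCm38). It had 7 counts in WT tumours, with 3 in WT 3, 1 in WT 4 and 3 in WT 5. It had 5 counts in Alb-Cre tumours, with 1 in tumour 5 and 4 in tumour 6, and 0 in the remaining 7 tumours of the study. The upper limit that a count of 0 allows, 3 counts, stands for 0.341 to 0.701 CPM over the 12 libraries. The ratio of Alb-Cre to WT counts, scaled to library size, was 0.887 with a 95% exact binomial interval of 0.222 to 3.25. That interval covers counting error only, since it pools the counts of a genotype and leaves out variation between tumours. No molecular identifiers are stated, so duplicate reads may be among the counts. The exact two-sided permutation p of CPM was 0.849 (n = 6 each), so a difference was not detectable at this depth. Of the cytokines that share its beta chain, Il3 had 0 counts in any tumour, and Il5 had 3 WT and 2 Alb-Cre counts.

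Csf1r encodes the receptor for both CSF1 and interleukin 34 and marks monocytes and macrophages. It lies on chromosome 18 at 61100598 to 61132149 (plus strand, GRCm38). Csf1r ranged from 254 to 563 CPM in WT tumours, with a median of 417, and from 365 to 828 CPM in Alb-Cre tumours, with a median of 648. All Alb-Cre tumours but number 2 lay above every WT tumour, and number 2 lay below 4 of the WT tumours. The mean was 406 ± 103 CPM in WT and 639 ± 164 CPM in Alb-Cre tumours (SD, n = 6). The log2 fold change was 0.65 ± 0.20 (SE), a 1.57-fold higher level, and edgeR's adjusted p was 0.0833. Without Alb-Cre 2, the Alb-Cre tumour with the lowest Csf1r, it was 0.77 ± 0.16 with an edgeR adjusted p of 0.0220. Of the 12 fits that each left out 1 tumour, only this 1 passed (adjusted p 0.0220 to 0.188). Without the 5 acinar-rich tumours the log2 fold change was 0.85 ± 0.25 with an edgeR adjusted p of 0.201. The gene Hmgxb3 overlaps Csf1r on the opposite strand. It and Mir6983 held 1722 counts over all tumours, beside 18571 WT and 24274 Alb-Cre counts of Csf1r, and the sources used here do not state whether counting used strand.

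Csf2ra, the chain that makes the receptor specific for GM-CSF, lies on chromosome 19 at 61223957 to 61228429 (minus strand, GRCm38). It ranged from 7.07 to 18.1 CPM in WT tumours, with a median of 10.9, and from 14.0 to 61.4 CPM in Alb-Cre tumours, with a median of 23.7. Alb-Cre 1, 3, 4 and 6 lay above every WT tumour, 2 and 5 lay within the WT range, and tumour 4 stood far above the rest. The log2 fold change was 1.20 ± 0.37 (SE), the largest of the 6 genes, and edgeR's adjusted p was 0.0959. Without Alb-Cre 4 it was 0.78 ± 0.25 with an edgeR adjusted p of 0.0767, and without the acinar-rich tumours 0.76 ± 0.34 with an edgeR adjusted p of 0.450. The 3' end of the gene lies 6766 bases apart in GENCODE M21 and RefSeq. The sources used here do not name the annotation used for counting, so the tags counted for Csf2ra may be only part of its reads.

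The beta chain genes had positive fold changes that did not pass the test. Csf2rb, the chain that carries the signal of GM-CSF, ranged from 23.0 to 36.5 CPM in WT tumours, with a median of 28.8, and from 23.6 to 48.6 CPM in Alb-Cre tumours, with a median of 35.8. Alb-Cre 2, 5 and 6 lay above every WT tumour, and 1, 3 and 4 lay within the WT range. Its log2 fold change was 0.29 ± 0.18 (SE), where edgeR's adjusted p was 0.395, and it was 0.70 ± 0.19 with an edgeR adjusted p of 0.107 without the 5 acinar-rich tumours. Csf2rb2, the interleukin 3 beta chain, ranged from 5.13 to 10.6 CPM in WT tumours, with a median of 8.51, and from 8.97 to 16.2 CPM in Alb-Cre tumours, with a median of 11.6. Alb-Cre 1, 4 and 6 lay above every WT tumour. Its log2 fold change was 0.61 ± 0.22 (SE), and edgeR's adjusted p was 0.124. With the counts of both genes summed, the log2 fold change was 0.36 ± 0.14 and the edgeR adjusted p 0.171.

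**Figure D3:**
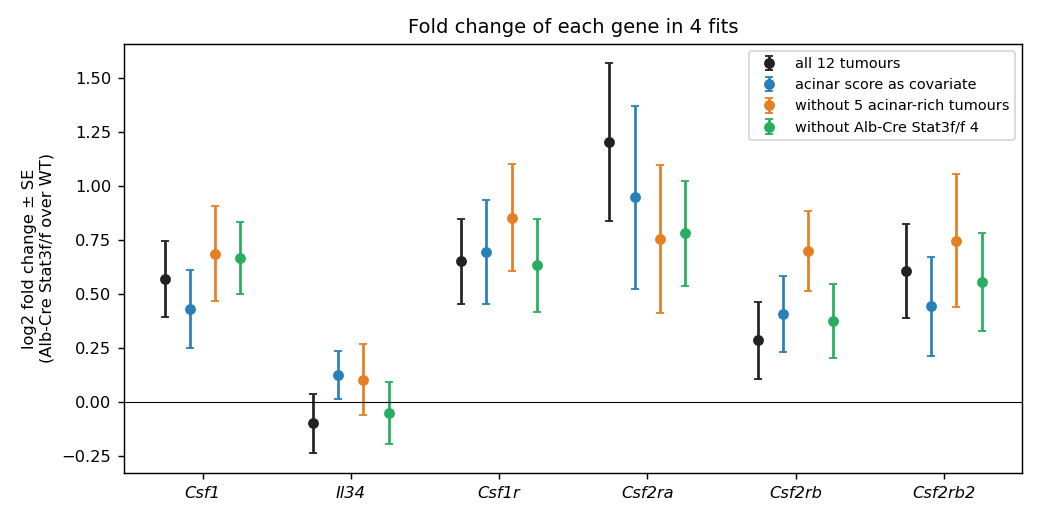
Log2 fold change of each gene from WT to Alb-Cre tumours (bars, SE), in the fit on all 12 tumours and in 3 others. Csf2ra moves from 1.20 to 0.78 without Alb-Cre 4, and Il34 lies near 0 in all 4 fits.

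Ratios within a tumour do not depend on library scaling and show directly whether a receptor and its ligand differed by unequal amounts. Csf1r and Csf1 had fold changes of like size. There were 21.1 Csf1r counts per Csf1 count in WT and 22.3 in Alb-Cre tumours (geometric means, n = 6), and the log2 difference was 0.08 (exact two-sided permutation p = 0.788). Against Il34, both had higher mean ratios in Alb-Cre tumours. Csf1r counts per Il34 count ranged from 2.98 to 5.82 in WT and from 4.82 to 9.40 in Alb-Cre tumours, with 4 of 6 tumours above every WT tumour. The log2 difference was 0.76 (exact permutation p = 0.0173), which did not pass adjustment over the 6 ratios computed (adjusted p = 0.104). The Csf1 to Il34 ratio was 0.197 in WT and 0.314 in Alb-Cre tumours, a log2 difference of 0.67 (exact permutation p = 0.0498, adjusted p = 0.149), and 3 of 6 Alb-Cre tumours exceeded all WT tumours. Put as a share, Il34 gave 83.1 ± 4.93% of the counts of both CSF1R ligands in WT and 75.7 ± 6.22% in Alb-Cre tumours (SD, n = 6). The share was lowest in Alb-Cre 1 at 68.3% (95% Wilson interval 64.6 to 71.8%) and highest in WT 6 at 89.3% (87.2 to 91.1%). Without the 5 acinar-rich tumours the log2 difference was 0.80 for Csf1r to Il34 (exact permutation p = 0.143) and 0.59 for Csf1 to Il34 (exact permutation p = 0.333), where 5 WT and 2 Alb-Cre tumours allow no p under 0.0476.

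Within the GM-CSF receptor, Csf2rb counts per Csf2ra count were 2.54 in WT and 1.41 in Alb-Cre tumours (geometric means, n = 6). Alb-Cre 4, at 0.392, and Alb-Cre 3, at 0.940, lay below every WT tumour, and the other 4 Alb-Cre tumours lay within the WT range. The log2 difference was -0.85 (exact permutation p = 0.134, adjusted p = 0.268) with all tumours, -0.48 without Alb-Cre 4 and -0.11 without the 5 acinar-rich tumours. The log2 differences of Csf2rb2 to Csf2rb (0.37) and of Csf1r to Csf2rb (0.40) had an adjusted exact permutation p of 0.332 each.

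**Figure D4:**
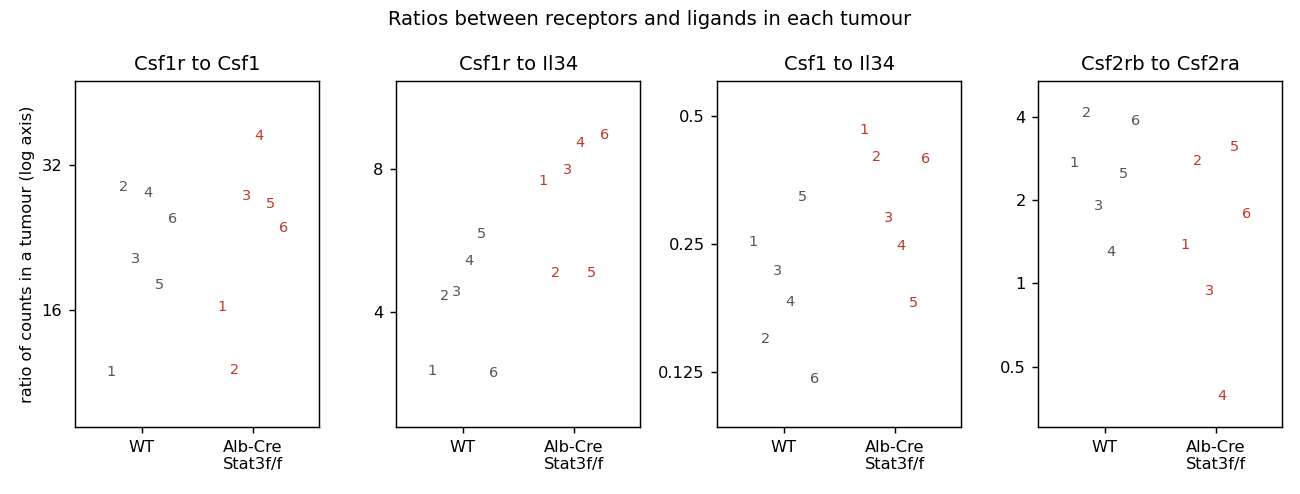
Ratios of counts in each tumour for 4 pairs of genes (log axis). Digits are tumour numbers. The Csf1r to Il34 ratio is above every WT tumour in 4 of 6 Alb-Cre tumours, and the Csf1r to Csf1 ratio overlaps almost fully.

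Macrophages are the cells best known for CSF1R. Of 14 macrophage markers, all tested, 8 rose in Alb-Cre tumours, 0 fell and 6 did not pass, with a median log2 fold change of 0.60. Over all genes tested, 2.23% were higher and 0.747% lower. The summed level of the 14 markers was 1315 to 1814 CPM in WT and 1845 to 2523 CPM in Alb-Cre tumours, and none was at 0. By sign, 12 of them had a positive log2 fold change and 2 a negative one. The negative ones were Cd14 (-0.24 ± 0.18, SE) and Cx3cr1 (-0.10 ± 0.16), with edgeR adjusted p of 0.494 and 0.789. Mertk, a receptor for dying cells, rose by 0.97 ± 0.15 (SE) and Mpeg1, a pore-forming protein of macrophages, by 0.74 ± 0.12 on the log2 scale (edgeR adjusted p = 0.00176 and 0.00232). Beside the mean log2 CPM of these markers, Csf1r differed by 0.12 between genotypes (exact permutation p = 0.578) and Csf1 by 0.03 (exact permutation p = 0.874). Csf2ra differed by 0.55 and Csf2rb by -0.28 on the same scale (exact permutation p = 0.18 and 0.132, adjusted p = 0.359 each over 4 genes). The value for Csf2ra was 0.23 without Alb-Cre 4, 0.11 without the 5 acinar-rich tumours and 0.21 beside monocyte in place of macrophage markers. That for Csf2rb was -0.63 beside monocyte markers (exact permutation p = 0.0303, adjusted p = 0.121). Over the 12 tumours, with genotype means taken away, Csf1r had r = 0.62 with the macrophage score (permutation p = 0.042, adjusted p = 0.252) and rho = 0.53 (permutation p = 0.0977, adjusted p = 0.458), and r was 0.75 without Alb-Cre 2 and 4. The other 5 genes had r between -0.06 and 0.46 with that score, none with a permutation p under 0.05.

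Other cell types that carry these receptors or make these ligands were read from their markers. For comparison with the calls below, 2.23% of all genes tested were higher and 0.747% lower. Monocyte markers had 3 of 8 higher and 0 lower (median log2 fold change 1.04), led by Ly6c2 (2.86 CPM in WT, 9.74 CPM in Alb-Cre tumours). The summed monocyte level did not rise alike, at 1004 to 1938 CPM in WT and 1051 to 1440 CPM in Alb-Cre tumours. By unadjusted p under 0.05, 4 monocyte markers were higher and 1 lower. Dendritic cell markers had 2 of 8 higher and 0 lower (0.84), led by Wdfy4. Of 7 neutrophil markers tested, 0 passed in either direction (0.11), at a summed 135 to 238 CPM in WT and 118 to 189 CPM in Alb-Cre tumours. By unadjusted p under 0.05, 2 neutrophil markers were higher and 0 lower. Of 6 tested markers of eosinophils, mast cells and basophils 0 passed (-0.01), and 1 was lower by unadjusted p under 0.05. T cell markers had 1 of 9 higher, Cd247, and 0 lower (1.02), at a summed 15.8 to 48.6 CPM in WT and 46.9 to 95.1 CPM in Alb-Cre tumours. Fibroblast markers had 1 of 10 higher, Dcn, and 0 lower (0.44), and of 8 endothelial markers 0 passed (0.14) and 1 had an unadjusted p under 0.05. DESeq2 called 0 of the neutrophil, endothelial and eosinophil, mast cell and basophil markers. Epithelial markers of the tumour had 0 of 8 higher and 2 lower, Sox9 and Krt7 (-0.40). In the lists with a call, DESeq2 called 4 monocyte, 3 dendritic cell, 4 T cell and 2 fibroblast markers higher and 4 epithelial markers lower, and by unadjusted p under 0.05 there were 6 T cell markers higher. No marker of these lists was at 0 in all tumours, and the part of any of these cell types in the values above was not tested.

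Downstream of CSF1R, 5 of 20 genes for adaptors, kinases and phosphatases rose, 0 fell and 15 did not pass, with a median log2 fold change of 0.50. The shares over all genes tested were 2.23% higher and 0.747% lower. Pik3r1, the regulatory subunit of PI3 kinase, rose from 45.1 ± 6.01 to 78.6 ± 19.9 CPM and Lyn, a Src family kinase, from 83.2 ± 8.69 to 123 ± 14.7 CPM (SD, n = 6). Inpp5d (the lipid phosphatase SHIP1) rose by 0.81 ± 0.19 (SE) and Ptpn6 (the tyrosine phosphatase SHP-1) by 0.69 ± 0.17 on the log2 scale, and both are known as brakes on receptor signals in myeloid cells. The adjusted p was 0.00508 for Pik3r1 and for Lyn, 0.0248 for Inpp5d and 0.0339 for Ptpn6 (edgeR). Pik3r1 and Lyn passed in each of the 12 fits that left out 1 tumour, Inpp5d in 5 and Ptpn6 in 4. The fifth, named after its values were seen, was Tyrobp, an adaptor of macrophage receptors (0.52 ± 0.14, passed in 2 of those 12 fits). Without 1 tumour 2 to 7 of the 20 genes passed, with 2 in the fits without WT 1, WT 6 or Alb-Cre 1, 2, 3 or 6. The number was 2 with the acinar score as a covariate and 0 without the 5 acinar-rich tumours.

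Among 16 tested genes of the CSF1 response and of macrophage identity, 6 rose, 1 fell and 9 did not pass (median log2 fold change 0.61). Among all genes tested, 2.23% were higher and 0.747% lower. The transcription factor genes Irf8 (log2 fold change 0.78 ± 0.16, SE), Mitf (0.90 ± 0.21) and Cebpa (0.51 ± 0.13) rose, with adjusted p of 0.0117, 0.0248 and 0.0332 (edgeR). Irf8 passed in each of the 12 fits that left out 1 tumour, Mitf in 6 and Cebpa in 4. Runx1, a factor of blood and epithelial cells that was named after its values were seen, fell by 0.41 on the log2 scale (SE 0.11, edgeR adjusted p = 0.0408, passed in 5 of 12 such fits). Spi1, which encodes PU.1 and was also named after its values were seen, had 19.3 ± 5.04 CPM in WT and 30.4 ± 5.75 CPM in Alb-Cre tumours and an edgeR adjusted p of 0.0509. Without 1 tumour 1 to 8 of the 16 genes were called higher, with 1 in the fits without WT 3, Alb-Cre 1 or Alb-Cre 2. The number was 3 with the acinar score as a covariate and 0 without the 5 acinar-rich tumours.

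Genes that relay the GM-CSF signal did not pass. Of 13 tested, among them Jak2, Stat5a and Stat5b, 0 rose and 0 fell (median log2 fold change 0.03). Since 2.23% of all genes tested were higher and 0.747% lower, 0 calls among 13 genes do not set this list apart. At an unadjusted p under 0.05 there were 3 higher and 0 lower, and DESeq2 called 0. The smallest p-values were those of Cish (0.42 ± 0.14) and Socs1 (0.75 ± 0.26), feedback inhibitors of cytokine signals, with edgeR adjusted p of 0.0973 and 0.119. Of 14 tested genes known to respond to GM-CSF 2 rose, 0 fell and 12 did not pass (median 0.56). Ccl17, a chemokine of dendritic cells and macrophages, rose from 12.7 ± 3.61 to 27.6 ± 6.49 CPM (log2 fold change 1.12 ± 0.20, edgeR adjusted p = 0.00422). Ccl24, a chemokine for eosinophils, rose from 2.54 ± 1.67 to 9.35 ± 5.54 CPM (log2 fold change 1.91 ± 0.44, edgeR adjusted p = 0.0259). Both also rose without the 5 acinar-rich tumours. Ccl17 passed in each of the 12 fits that left out 1 tumour and Ccl24 in 5, while the log2 fold change of Ccl24 adjusted for the acinar score was 1.81 (edgeR adjusted p = 0.0694).

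**Figure D5:**
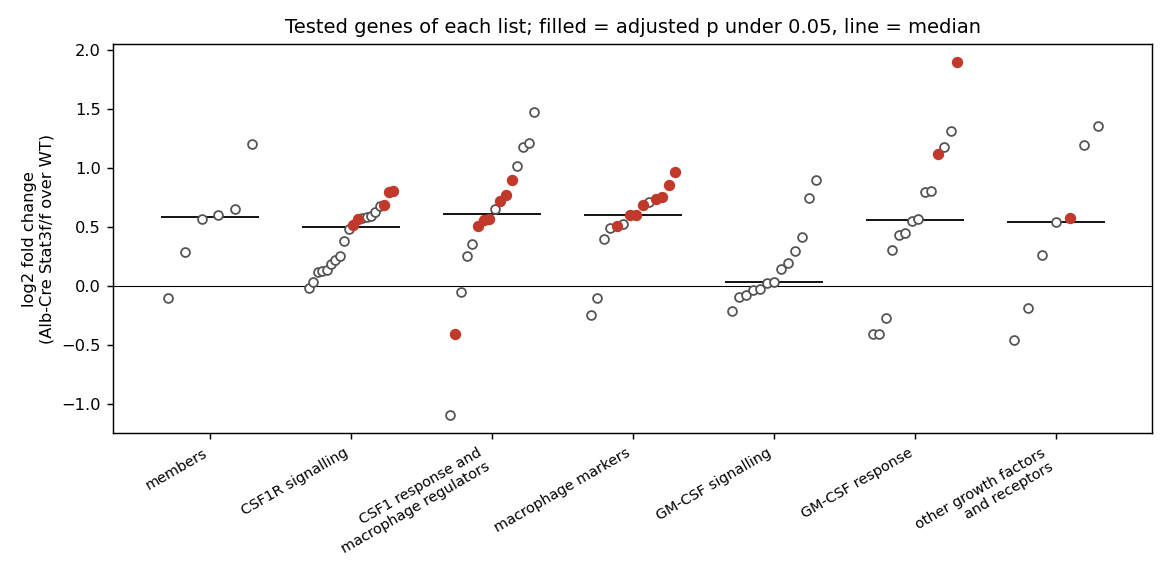
Log2 fold change, Alb-Cre over WT, of each tested gene of 7 lists. Filled points have an edgeR adjusted p under 0.05 and lines are medians, which lie at 0.59 for the 6 CSF axis genes, 0.60 for macrophage markers and 0.03 for GM-CSF signalling genes.

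Among 14 related growth factor and receptor genes 7 were tested, of which 1 rose and 0 fell, beside 2.23% and 0.747% of all genes tested. The gene that rose was Crlf2, a chain of the receptor for the epithelial cytokine TSLP, at 27.3 ± 4.48 CPM in WT and 40.7 ± 6.70 CPM in Alb-Cre tumours (log2 fold change 0.58 ± 0.14, edgeR adjusted p = 0.0259, passed in 7 of the 12 fits that left out 1 tumour). Csf3, encoding G-CSF, the growth factor of neutrophils, had 54 WT and 26 Alb-Cre counts, which is a scaled ratio of 0.598 with counting limits of 0.359 to 0.971 (95%, exact). Its receptor gene Csf3r had 57 and 85 counts, a ratio of 1.85 (1.31 to 2.64). Both intervals pool the counts of a genotype and leave out variation between tumours. Neither gene passed the low count filter, and neither difference was tested over tumours. Of the alternative receptors described for interleukin 34, Ptprz1 had 23 WT and 6 Alb-Cre counts and did not pass the filter. Sdc1 (syndecan 1) fell from 239 ± 30.9 to 169 ± 12.5 CPM, by 0.51 on the log2 scale (SE 0.097, edgeR adjusted p = 0.00809), and did so in each of the 12 fits that left out 1 tumour, while without the acinar-rich tumours the log2 fold change was -0.43 (edgeR adjusted p = 0.207, with 2 Alb-Cre tumours left). Of 11 tested genes for inflammatory cytokines known to induce CSF ligands, their receptors and NF-kB subunits, a list that includes Tnf and Il1b, 0 passed (median log2 fold change 0.06). By unadjusted p under 0.05, 2 of them were higher and 1 lower, and DESeq2 called 0. Adam17, the protease that sheds CSF1 and its receptor from the cell surface, had 98.2 ± 9.07 CPM in WT and 98.1 ± 12.5 CPM in Alb-Cre tumours.

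The genes whose level varied most like each member were sought among 10320 genes over the 12 tumours, after each genotype's mean was taken away. They are given as a description, and the points share library depth and tissue content. For Csf1 the 5 closest were Irf5 (r = 0.91), Lcp1 (0.90), Clec4n (0.90), Myd88 (0.90) and Sirpa (0.89). For Csf1r the closest were H2-DMa (0.93), a chaperone of MHC class II, then Ubxn1, Rpp21, Ly6e and Rnf135 (0.92 to 0.89). For Il34 they were Klhl26 (0.95), Mvb12b, Amdhd2, Ptcd1 and Pcnx3 (0.91 to 0.89), and for Csf2ra Grtp1 (0.91), Pura, Gramd1b, Rb1cc1 and Tnfrsf1b (0.89 to 0.86). Csf2rb was closest to Hk2 (0.93), Nsun2, Emc10, Cenpw and Pqlc2 (0.93 to 0.90), and Csf2rb2 to Rab9 (0.91), Acad8, B3gnt3, Xcl1 and Pvr (0.90 to 0.87). None of the 6 was among the 5 closest genes of another.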

How the data were processed

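RNA from 12 tumours was measured by QuantSeq 3' mRNA-Seq FWD (Lexogen), per the labels' protocols. The authors deposited 1 table of unnormalised read counts per gene symbol, and the submitters' processing notes name the aligner STAR and the build mm10. The sources used here give no versions, counting tool, annotation, strand setting or filters. Of 24982 entries, 26 carried a number in place of a symbol and were left out (0.0690 to 0.166% of counts).

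The counts were tested with edgeR 4.0.16 (R 4.3.3): filterByExpr (minimum count 10, total 15), TMM scaling (factors 0.578 to 1.29), and the robust quasi-likelihood test across all genes on genotype alone, two-sided, with Benjamini-Hochberg adjustment over 12856 genes and 0.05 as threshold. Each fold change divides Alb-Cre by WT. DESeq2 1.42.0 and limma 3.58.1 served as alternatives. Ratios added 0.5 counts to each gene, and exact permutation tests used all 924 relabellings (smallest p 0.00216). Correlations used 100000 permutations within genotype. Scores are mean log2 CPM (prior count 2). Gene positions and transcripts are from GENCODE M21 (GRCm38, the assembly of mm10). Promoters are from RefSeq, which matched 4 of the 7 genes.

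In counts simulated for this comparison over 12689 genes, with genes of at least 5 CPM changed, 26.9% of 1.5-fold, 85.1% of 2-fold and 93.9% of 3-fold changes were recovered, with 6 false calls. The 7 genes and all lists were chosen with earlier results of these data known. Named genes were all 7, up to 4 genes of a list past the threshold (or the 2 with the smallest p), and the 5 most like each member. Genes outside this rule that are named with values (Tyrobp, Runx1, Spi1, Cd14, Cx3cr1, Csf3, Csf3r, Il3, Il5, Ptprz1 and Adam17) were chosen after their values were seen. Of the genes the rule chose, 1 is not reported here. The numbers that open the sample descriptions are lower in all Alb-Cre than in all WT tumours, so any order they stand for cannot be told apart from genotype. Tumour numbers were tried as a block and tumours were left out in turn.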

Additional observations from a re-analysis of the deposited data

Results flagged for a closer look

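In Alb-Cre tumour 4, Csf2ra stood at 61.4 CPM, while the other 5 tumours of that genotype lay between 14.0 and 25.1 CPM. Its gap to the next tumour was 0.767 of the whole range, over the critical value of Dixon's test for 6 samples. In the same tumour Csf1 was the lowest of its genotype, at 18.5 CPM, and Csf2rb had 24.03 CPM. In Alb-Cre tumour 6, Csf2 stood at 0.507 CPM (gap 0.747 of the range), which is 4 counts. Groups examined in this way numbered 14, and for normally distributed values chance alone marks about 1 in 20. The CPM examined were not put on a log scale, so this rate is a rough guide. It does not hold for Csf2, which had a count in only 2 Alb-Cre tumours.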

How the results depend on the processing

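Csf1, Csf1r, Csf2ra, Csf2rb and Csf2rb2 kept a positive fold change in every fit run, and their calls depended on the test. With DESeq2 the log2 fold change was 0.56 for Csf1, 0.65 for Csf1r and 1.20 for Csf2ra (adjusted p 0.0409, 0.0135 and 0.00539 by DESeq2). Leaving out 1 tumour gave 0.49 to 0.67 for Csf1, 0.55 to 0.77 for Csf1r and 0.78 to 1.36 for Csf2ra. Il34 was 0.12 with the acinar score and 0.10 without the acinar-rich tumours. The number of genes called higher and lower was 287 and 96, and 618 and 288 with DESeq2, 126 and 28 with an acinar covariate, 83 and 14 without the acinar-rich tumours, and 141 to 471 and 37 to 222 without 1 tumour. The former number moved by over 1.5 times without WT 1, 3, 4 or 6 or Alb-Cre 1, 2 or 5, and the latter without any single tumour but WT 2 and Alb-Cre 6. With the tumour number as a replicate block it was 145 and 44, and Csf2ra was 1.11 (edgeR adjusted p 0.02815). Same-numbered tumours share only a number: their deviations correlated from -0.74 to 0.181. The difference in Csf1r to Csf1 was -0.0805 to 0.26 without 1 tumour. Relative to monocyte in place of macrophage markers Csf1r was -0.23 and Csf1 -0.32. Relative to macrophage markers without the acinar-rich tumours Csf2rb was 0.0064 and Csf1 -0.0307, and Csf1 was -0.064 to 0.11 without 1 tumour. The causes were not tested. With 6 tumours a genotype, 1.5-fold changes were mostly missed in simulated counts, and Csf2 was too sparse to compare.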
